A study of Drosophila melanogaster with 3 samples.

Results

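Proteasome subunit genes were examined for Hmr at their transcription starts. They were the protein-coding genes whose symbol begins with Rpn, Rpt, Prosalpha or Prosbeta and a number, without the copies used in the testis, whose symbols end in R or T, with or without a digit. The rule gave 32 of 13945 protein-coding genes. Of these, 7 encode the alpha ring, 7 the beta ring, 6 the ATPases of the base, 4 the other base subunits and 8 the lid, while Sem1, a further lid subunit, has another kind of symbol and was read beside them. The membership rule used no measured value. Hmr, a DNA-binding protein known for its part in hybrid incompatibility between fly species, was mapped by chromatin immunoprecipitation and sequencing (ChIP-seq) in whole embryos aged 0 to 24 h, pooled from both sexes. The transgenic Drosophila melanogaster line stably expressed Hmr fused to eGFP at its C terminus, and the tagged protein was pulled down with anti-GFP. The 3 biological replicates formed 1 group, so no condition was compared with another. Whole embryos mix all their cell types, and the labels do not say what drives the transgene or whether the untagged Hmr gene was kept.

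The proteasome degrades proteins tagged with ubiquitin. Its barrel-shaped core is built of outer alpha rings, which gate the entrance, around inner beta rings, which carry the protease sites. A regulatory cap binds ubiquitin and unfolds the substrate with a ring of ATPases in its base, and its lid removes the ubiquitin chain. All subunits are needed together in most cells, and in flies cnc (the counterpart of mammalian Nrf factors) is known to activate their genes when proteasome activity falls.

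The promoters of 8 members show the sequence features that the results below refer to. Capitals mark the DNA replication-related element (DRE), TATCGATA, bound by DREF, in the first 6 sequences, and Motif 1, GGTCACACT, bound by M1BP, in the last 2. Sequences are from the RefSeq Release 6 genome, the assembly of dm6, written 5′ to 3′ on the strand of the gene. Rpt5, Prosbeta2, Rpn3 and Rpn12 had a summit of the authors' optimal list at the start, Prosbeta6 had a weak entry, and Prosalpha6 had none in any list. Prosalpha2 and Rpn1 had entries in replicate lists but none in the pooled list.
Rpt5, chr3R:23752806-23752903, plus strand: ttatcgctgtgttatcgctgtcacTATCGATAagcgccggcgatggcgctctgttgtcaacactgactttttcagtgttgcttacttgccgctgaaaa
Prosbeta2, chr3L:14999801-14999970, plus strand: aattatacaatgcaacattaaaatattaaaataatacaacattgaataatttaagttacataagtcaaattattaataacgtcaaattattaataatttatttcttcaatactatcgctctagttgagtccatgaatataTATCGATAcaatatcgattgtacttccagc
Rpn3, chr2L:19051590-19051799, plus strand: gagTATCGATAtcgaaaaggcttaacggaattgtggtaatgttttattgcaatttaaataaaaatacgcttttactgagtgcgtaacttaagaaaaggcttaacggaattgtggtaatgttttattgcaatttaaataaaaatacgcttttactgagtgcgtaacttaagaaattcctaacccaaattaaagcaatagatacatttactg
Rpn12, chr3L:16582798-16583037, plus strand: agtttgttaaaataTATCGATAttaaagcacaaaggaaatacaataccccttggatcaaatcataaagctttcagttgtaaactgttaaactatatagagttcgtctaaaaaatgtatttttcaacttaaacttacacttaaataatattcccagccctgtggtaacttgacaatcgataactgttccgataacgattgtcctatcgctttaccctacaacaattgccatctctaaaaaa
Prosbeta6, chr3L:16610399-16610518, minus strand: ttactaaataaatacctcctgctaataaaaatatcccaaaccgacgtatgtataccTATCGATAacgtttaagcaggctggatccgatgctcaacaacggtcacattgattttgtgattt
Prosalpha6, chr2L:10221221-10221370, plus strand: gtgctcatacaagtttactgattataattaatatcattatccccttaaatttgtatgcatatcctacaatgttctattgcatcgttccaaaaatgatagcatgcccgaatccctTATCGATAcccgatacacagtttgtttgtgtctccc
Prosalpha2, chr3R:12431221-12431348, plus strand: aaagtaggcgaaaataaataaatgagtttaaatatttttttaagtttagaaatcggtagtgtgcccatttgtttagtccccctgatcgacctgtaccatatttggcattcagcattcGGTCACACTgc
Rpn1, chr3L:19914951-19915070, plus strand: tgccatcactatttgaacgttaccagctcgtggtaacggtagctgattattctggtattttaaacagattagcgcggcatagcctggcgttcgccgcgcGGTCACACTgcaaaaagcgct

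In the Rpn3 window a stretch of 82 bases occurred again 78 bases farther on, between the DRE and the start. Within 250 bp of the Rpn3 start, 78.3% of the 32-base words occurred once in the genome. The same share was 100% for every other member except Rpt6, with 99.4%, and Prosalpha1, with 0%. Every such word at the start of Prosalpha1 thus occurs elsewhere too, as does every word at its copy Prosalpha1R, so a lack of entries there cannot be told apart from reads that could not be placed.

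Each deposited list gives regions with the authors' signal value and a summit. The optimal list held 8131 peaks and was exactly the strongest 8131 of the 30000 entries of the pooled list. Each replicate list held 30000 entries too, weak ones included, so for a like-for-like reading its strongest 8131 were used as well. Signal is compared only within a list, since the lists differ in scale and the sequencing depth is unknown. Shares carry 95% intervals by the exact Clopper-Pearson method, which allow for counting error alone. No test was made over the members.

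Hmr lay at the starts of 12 of the 32 proteasome genes in the optimal list (37.5%, interval 21.1 to 56.3%), against 23.4% of all protein-coding genes. The interval includes the share of all genes. With the weaker entries of the pooled list the count was 17 members (53.1%, interval 34.7 to 70.9%), against 36.3% of all genes. The 12 genes were Prosalpha4, Prosalpha5, Prosbeta1, Prosbeta2, Rpt5, Rpn2, Rpn13, Rpn3, Rpn5, Rpn9, Rpn11 and Rpn12. The replicates differed widely. Among the strongest entries, 7, 13 and 23 members had one at a start in replicates 1, 2 and 3.

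**Figure D1:**
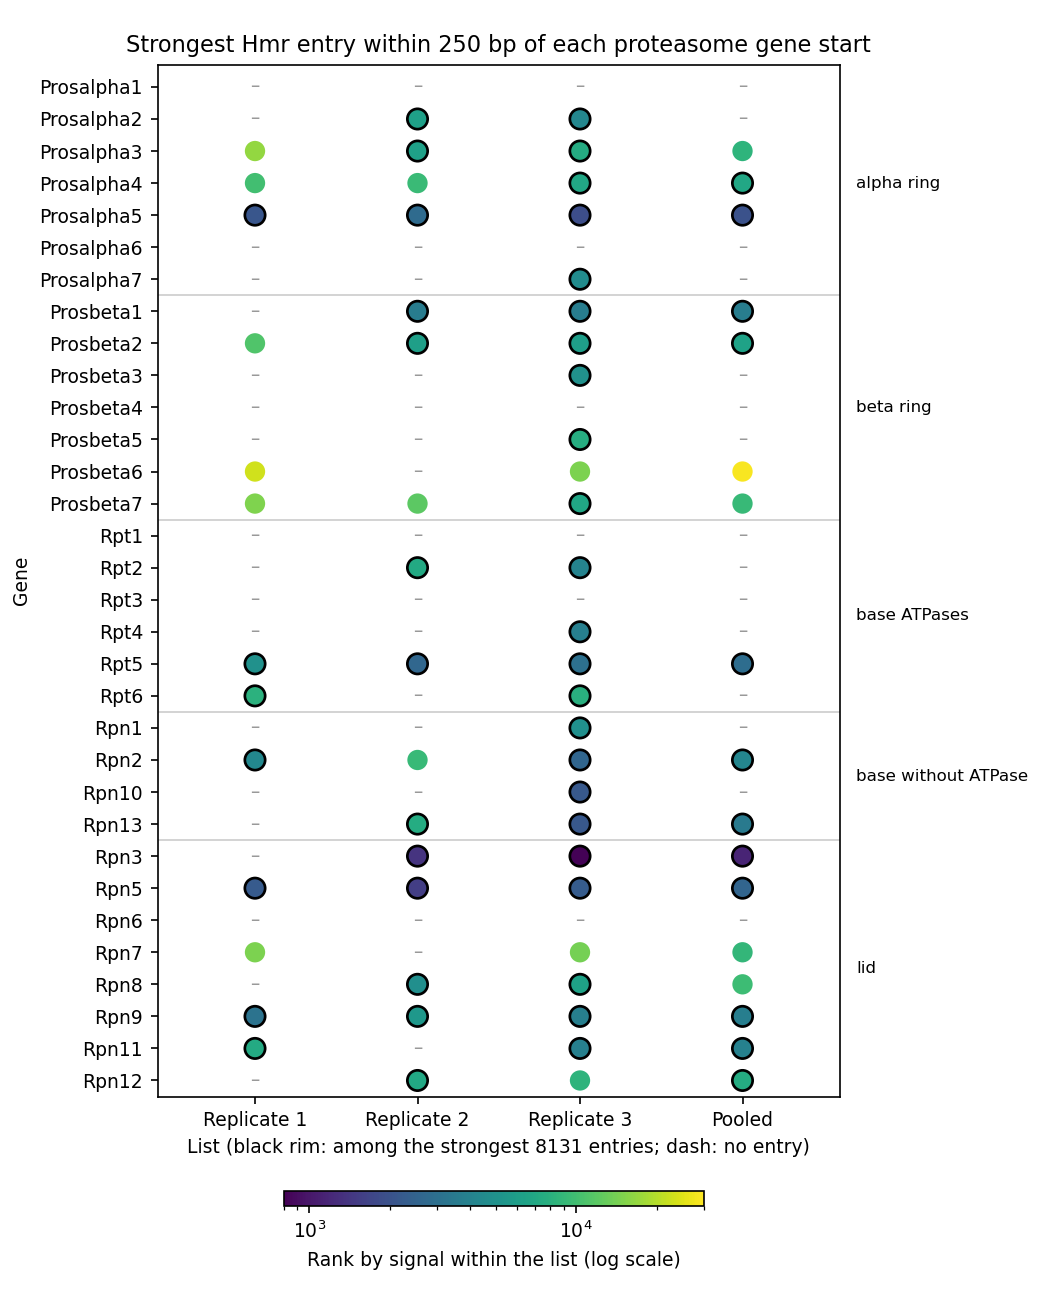
Rank of the strongest entry within 250 bp of a start of each of the 32 proteasome genes (rows, by subcomplex) in the 3 replicate lists and the pooled list (columns); darker points rank higher, black rims mark the strongest 8131 and dashes mark no entry. Replicate 3 has rims at 23 genes, and 6 genes have dashes throughout.

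Prosalpha5, an alpha-ring subunit, had the strongest summit of the core particle, with a signal of 449 (rank 1987 of the optimal list) 69 bp upstream of its start. Its entries ranked 2109, 2818 and 1897 in replicates 1, 2 and 3, so all 3 replicates held it among the strongest. The peak spans chr2R:17412609-17412771, and the nearest start of another gene lay 2494 bp from the summit. Prosalpha4 had 177 (rank 6925) 43 bp upstream at chrX:16275999-16276454, between its start and that of kat80, the regulatory subunit of katanin, 47 bp from the summit. It ranked 9945, 9304 and 6891 in replicates 1, 2 and 3, so only replicate 3 had it among the strongest. Prosalpha3, whose yeast counterpart closes the gate of the core, had a pooled entry of 148 (rank 8481), just below the optimal list, with ranks 16726, 6265 and 7297 in the replicates.

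The remaining alpha-ring genes had no pooled entry. Prosalpha2 ranked 6224 in replicate 2 and 4311 in replicate 3 and was absent from replicate 1. Prosalpha7 had an entry in replicate 3 alone, at rank 4593. Prosalpha1 and Prosalpha6 had none in any list, and the nearest optimal summit of Prosalpha6 lay 20304 bp away.

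Of the beta ring, Prosbeta1 and Prosbeta2, which carry the caspase-like and trypsin-like protease sites, had optimal summits. Prosbeta1 had 298 (rank 3666) 91 bp upstream at chr2R:16014650-16015105, and was absent from replicate 1 while ranking 3600 and 3674 in replicates 2 and 3. The start of Rrp42, an exosome subunit, was nearer to that summit, at 30 bp. Prosbeta2 had 190 (rank 6416) 196 bp upstream at chr3L:14999527-14999982, with ranks 11003, 6119 and 6002 in replicates 1, 2 and 3, and the start of mRpL39, a mitochondrial ribosomal protein gene, was nearer at 89 bp. Neither was among the strongest entries of replicate 1. Prosbeta5, which carries the chymotrypsin-like site, and Prosbeta3 had entries in replicate 3 alone, at ranks 7603 and 4911.

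Prosbeta7 had a pooled entry of 137 (rank 9189) and ranked 14894, 12030 and 6788 in replicates 1, 2 and 3. Prosbeta6 had the weakest pooled entry of any member, 45.2 (rank 29097 of 30000), with ranks 23006 and 14598 in replicates 1 and 3 and none in replicate 2. Prosbeta4 had no entry. No beta-ring gene was among the strongest of replicate 1, 2 were in replicate 2 and 5 in replicate 3. Of all genes, 22.4%, 23.5% and 27.6% were.

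Among the ATPases of the base, which form the unfolding ring, only Rpt5 had an optimal summit, 352 (rank 2884) 17 bp upstream of its start at chr3R:23752631-23753086. It ranked 4958, 2651 and 3013 in replicates 1, 2 and 3, and all 3 summits lay within 16 bp of the start. The start of RanBP3, a partner of the Ran export machinery, lay 42 bp from that of Rpt5, and the DRE shown above spans it. Rpt2, whose tail opens the gate of the core in yeast, ranked 7117 in replicate 2 and 4030 in replicate 3, and Rpt6 ranked 8107 in replicate 1 and 7917 in replicate 3. Neither had a pooled entry. Rpt4 had an entry in replicate 3 alone (rank 3795), and Rpt1 and Rpt3 had none.

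All 4 base subunits without ATPase activity were among the strongest entries of replicate 3, beside 27.6% of all genes. Rpn13, a ubiquitin receptor, had an optimal summit of 308 (rank 3493) 247 bp upstream of its start at chr2R:13960423-13960878 and 24 bp from that of CtsL1, a cathepsin. In replicate 1 a summit of rank 2514 lay 17 bp from the optimal one and 264 bp from the start, just outside the 250 bp limit. It ranked 7442 and 2126 in replicates 2 and 3, where the summits lay 112 and 67 bp upstream of Rpn13 and its own start was the nearer one. Rpn2, the scaffold that holds Rpn13, had 268 (rank 4208) 146 bp upstream at chr3R:29153150-29153605, with Slbp, the histone mRNA stem-loop binding protein gene, nearer at 112 bp, and ranked 4333, 9195 and 2600 in the replicates. Rpn10, another ubiquitin receptor, and Rpn1, which docks ubiquitin shuttle factors, had entries in replicate 3 alone, at ranks 2168 and 4865.

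The lid had the most optimal summits, at 5 of its 8 genes under the rule, beside 23.4% of all protein-coding genes. Rpn3, a scaffold subunit, had the highest signal of any member, 624 (rank 1142), 12 bp upstream of its start at chr2L:19051710-19051919, overlapping the repeated stretch. It ranked 1377 and 813 in replicates 2 and 3 and had no entry in replicate 1. The peak was 210 bp wide, against a median of 456 bp for the list. Rpn5, also a scaffold subunit, had 380 (rank 2588) 92 bp upstream at chr3R:5789173-5789628, with ranks 2236, 1546 and 2251 in replicates 1, 2 and 3. It lies 109 bp from the start of Hat1, a histone acetyltransferase gene, which was nearer to the summit at 17 bp.

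Rpn9, a further scaffold subunit, had 296 (rank 3705) 211 bp upstream of the nearest of its starts, in chr3R:23732994-23733449, and ranked 3195, 5541 and 3788 in the replicates. Rpn11, the protease that cuts ubiquitin chains from the substrate, had 286 (rank 3878) 97 bp upstream at chr2L:5059659-5060114, with ranks 7229 and 3801 in replicates 1 and 3. In replicate 2 a summit of rank 2476 lay 199 bp from the optimal one and 296 bp from the start, outside the limit. Rpn12 had 166 (rank 7487) 129 bp upstream at chr3L:16582671-16583126, with ranks 7041 and 8341 in replicates 2 and 3 and none in replicate 1. Its summit was the weakest of the 12.

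Outside the optimal list, Rpn7 had a pooled entry of 142 (rank 8870) and ranked 14759 and 13975 in replicates 1 and 3. Rpn8, the partner of Rpn11, had 131 (rank 9663) and ranked 4783 and 6437 in replicates 2 and 3. These entries lay at the later of its 2 starts, chr2R:24403005, inside the gene, which begins at chr2R:24400028. The last-ranked optimal summit lay 373 bp from the nearest Rpn8 start, outside the 250 bp limit, and was nearest to the start of Slik. Rpn6, which clamps the cap to the core, had no entry in any list. Sem1 had none in the optimal or pooled list and none among the strongest of any replicate.

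By subcomplex, optimal summits lay at 2 of 7 alpha-ring, 2 of 7 beta-ring, 1 of 6 base ATPase, 2 of 4 other base and 5 of 8 lid genes. This makes 8 of 18 cap genes and 4 of 14 core genes, beside 23.4% of all protein-coding genes. The counts of the core and of its rings are near that share and are no result about them. In replicate 3 the strongest entries were spread more evenly, at 5, 5, 4, 4 and 5 genes in the same order, beside 27.6% of all genes. The differences between subcomplexes were not tested.

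The signals at the 12 genes were moderate. Their median was 297 (range 166 to 624), against 348 (range 154 to 5450) at the 3248 other protein-coding genes with an optimal summit at a start. The 95% interval of the members' median, read from their ordered values, was 190 to 380 and includes 348. Rpn3, Prosalpha5, Rpn5 and Rpt5 were above the median of the other genes, and the other 8 were below it.

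Replicate 3 stood apart at these genes. Among the strongest entries, 7 members (21.9%, interval 9.28 to 40%) had one at a start in replicate 1, against 22.4% of all genes. In replicate 2 the count was 13 (40.6%, interval 23.7 to 59.4%), against 23.5% of all genes. In replicate 3 it was 23 (71.9%, interval 53.3 to 86.3%), against 27.6% of all genes. The mean was 14.3 ± 8.08 members (SD, n = 3), and over all genes the shares averaged 24.5 ± 2.74% (SD, n = 3). The first SD is in genes out of 32 and the second in percent, so they are not to be compared directly. Strong entries just outside the limit, at 264 to 296 bp, lay near Rpn13 in replicate 1 and near Prosalpha4, Rpn7 and Rpn11 in replicate 2. In replicate 1 the members' share was near that of all genes, and in replicate 3 its interval lay above it. A set of 32 genes varies more by counting alone than all genes do.

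**Figure D2:**
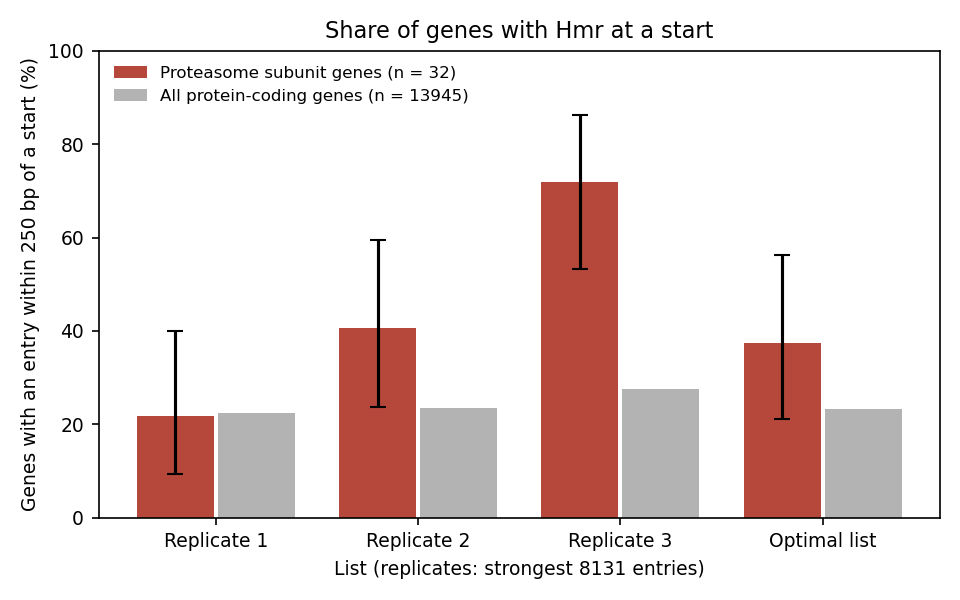
Share of the 32 proteasome genes (red, with exact 95% intervals) and of all 13945 protein-coding genes (grey) with an entry within 250 bp of a start, among the strongest 8131 entries of each replicate and in the optimal list. The members' share is 21.9%, 40.6% and 71.9% in replicates 1, 2 and 3 while the share of all genes stays between 22.4% and 27.6%.

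The whole lists gave the same order. Any entry was present at 13 members in replicate 1 (35.8% of all genes had one), at 16 in replicate 2 (36.0% of all genes) and at 26 in replicate 3 (43.0% of all genes). Entries in all 3 lists were present at 9 members (28.1%), against 24.5% of all genes. Among the strongest entries all 3 replicates held 4 members, Prosalpha5, Rpt5, Rpn5 and Rpn9 (12.5%), against 15.2% of all genes. Both shares are close to those of all genes and are no result about the members. The members in no list were 6, Prosalpha1, Prosalpha6, Prosbeta4, Rpt1, Rpt3 and Rpn6 (18.8%), against 47.7% of all genes.

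A set of members had strong entries in replicate 3 and nothing in the other lists, a grouping chosen after the ranks were seen. These were Prosalpha7, Prosbeta3, Prosbeta5, Rpt4, Rpn1 and Rpn10. They made up 18.8% of the members, against 1.58% of all genes with an entry among the strongest of replicate 3 and none in replicate 1, replicate 2 or the pooled list. Their replicate 3 signals ran from 66.4 at Prosbeta5 to 164 at Rpn10, within a list that spans 18.7 to 2330. The best placed, Rpn10, ranked 2168, above most members of the optimal list in that replicate.

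Strong entries could also be missing from the pooled list when more than 1 replicate held them. Prosalpha2, Rpt2 and Rpt6 were among the strongest of 2 replicates and had no pooled entry (9.38% of the members, against 2.40% of all genes). In total 9 of the 23 members among the strongest of replicate 3 (39.1%) had no pooled entry, against 604 of 3846 genes (15.7%). For these 9 the nearest pooled summit lay 2866 to 20843 bp from the start. The same count was 1 of 7 members in replicate 1, against 6.22% of genes, and 2 of 13 in replicate 2, against 14.3% of genes. Whether the depth, the control or the pull-down of replicate 3 had a part in this was not tested.

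The counts of other sets of broadly used genes lay closer together between replicates. Among the strongest entries, mitochondrial ribosomal protein genes had 23, 33 and 34 of 73 in replicates 1, 2 and 3, and vacuolar ATPase genes had 11, 11 and 14 of 33. The difference between these sets and the proteasome genes was not tested. By chromosome, 2 of 4 members on 2L, 3 of 10 on 2R, 2 of 5 on 3L, 4 of 9 on 3R and 1 of 4 on X had an optimal summit. Shares of all genes were not computed by chromosome, so these counts are no result about chromosomes.

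The support of each optimal peak was read by its own summit. Of the 12 peaks, 6 had a summit within 200 bp among the strongest entries of all 3 replicates (59.7% of all optimal peaks did), 4 in 2 replicates and 2 in 1 replicate. By replicate, 7, 10 and 11 of the 12 were matched in replicates 1, 2 and 3, against 80.5%, 81.2% and 84.4% of all optimal peaks. Replicate 1 was thus the one that most often lacked a member's peak.

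Summits lay on the upstream side. All 12 optimal summits were upstream of the member's nearest start, with a median of 94.5 bp and a range of 12 to 247 bp, and 83.3% of the 3260 genes with an optimal summit had theirs upstream. In replicates 1, 2 and 3, 12 of 13, 15 of 16 and 24 of 26 members had their strongest entry upstream. The exceptions were Rpn9 in replicate 1, Prosbeta7 in replicate 2, and Rpn3 and Rpn10 in replicate 3. For 6 of the 12 the member's own start was the nearest of any gene, and for the other 6 the start of the neighbour was nearer.

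**Figure D3:**
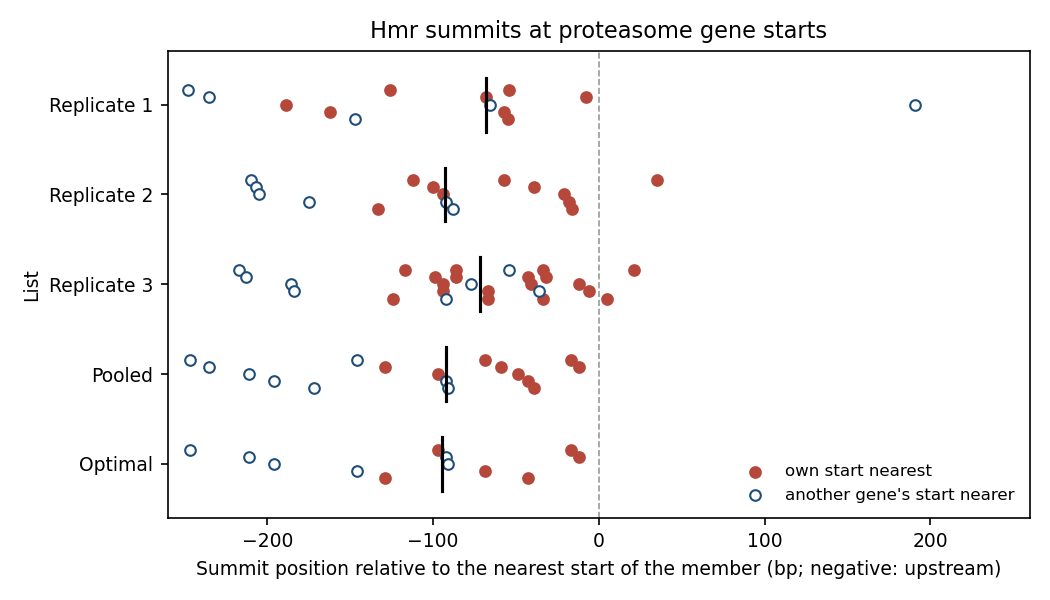
Position of the strongest summit relative to the nearest start of each proteasome gene (bp, negative upstream) in each list; filled red points have the member's own start nearest, open blue points another gene's, and black bars are medians. Optimal summits lie 12 to 247 bp upstream, with 6 of 12 nearest to the member's own start.

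Most proteasome genes share their upstream region with another gene. A head-to-head partner, a protein-coding gene on the opposite strand starting within 500 bp upstream, was present for 21 of 32 members (65.6%), against 27.4% of all genes. Gaps ran from 42 bp between Rpt5 and RanBP3 to 417 bp between Prosbeta4 and Nubp1. Optimal summits lay at 9 of the 21 members with a partner (42.9%), against 39.2% of all genes with one, and at 3 of the 11 without (27.3%), against 17.4% of all genes without one. The share of members with a partner and a summit was thus close to that of head-to-head genes at large. At each of those 9 genes the summit lay within 250 bp of the partner's start as well, so it cannot be assigned to either gene.

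In replicate 3 the partner made little difference among the members. Strongest entries lay at 15 of 21 members with a partner and at 8 of 11 without (72.7%). Over all genes these shares were 48.4% with a partner and 19.7% without. Members without a partner that had replicate 3 entries included Rpn1, Rpn10 and Rpt6.

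The DRE occurred from 250 bp before to 50 bp after the 5′-most start of 12 members (37.5%), against 9.37% of all promoters, and of 0 of 16 testis copies. It reads the same on both strands, and contains CGATA, the core bound by the insulator protein BEAF-32, so the 2 searches overlap. CGATA on either strand was in 27 members (84.4%), against 47.5% of promoters. Motif 1 was in 5 members, Prosalpha2, Prosalpha4, Prosbeta3, Rpn1 and Rpn7 (15.6%), against 6.05% of promoters.

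The element of cnc and Maf, TGACNNNGC, was in 5 members, Prosalpha2, Prosbeta3, Rpt6, Rpn1 and Rpn7 (15.6%), against 8.64% of promoters, and in Prosbeta3 and Rpn1 it shared 5 bases with Motif 1. The TATA box, TATAAA, was in 13 members (40.6%), against 45.9% of promoters, and the initiator core TCAGT in 18 (56.2%), against 51.6%. The repeat GAGAGAG was in 0 members, against 5.87% of promoters, and the E-box CACGTG in 0, against 4.24%. The heat shock element GAANNTTC was in Rpn6 only, against 9.40% of promoters. Both strands were searched, and a match shows that the letters are there, not that a factor is bound.

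Optimal summits lay at 8 of 12 members with the DRE (66.7%), against 34.0% of all 1306 genes with it, and at 4 of 20 members without it, against 22.3% of all genes without it. The 8 genes were Prosalpha5, Prosbeta1, Prosbeta2, Rpt5, Rpn13, Rpn3, Rpn9 and Rpn12. The distance from the centre of the DRE in the promoter window to the summit was 26 to 210 bp, with a median of 68 bp (n = 8). For Rpn3 the DRE of that window lay outside the peak, 182 bp from the summit. A further DRE lay within 100 bp of the Rpn3 start, past the end of the window and inside the peak. Its distance was not read, so the median uses the farther DRE for Rpn3. The members with the DRE and no optimal summit were Prosalpha3, Prosbeta6 and Rpn7, which had pooled entries, and Prosalpha6, whose DRE ends 9 bp before its start.

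Of the replicates, only replicate 2 showed this pattern. In replicate 1 the strongest entries lay at 3 of 12 members with the DRE, against 392 of all 1306 genes with it, and at 4 of 20 members without it, against 21.6% of all genes without it. Both counts are near or below the shares of all genes. In replicate 2 they lay at 9 of 12 members with the DRE, against 36.4% of all genes with it, and at 4 of 20 without it, against 22.2%. In replicate 3 they lay at 8 of 12 members with the DRE, against 44.9% of all genes with it, and at 15 of 20 without it (75%), against 25.8%. The 4 members with Motif 1 and no DRE, Prosalpha2, Prosalpha4, Prosbeta3 and Rpn1, were all among the strongest of replicate 3, against 50.5% of all such genes. Of these 4, 1 was among the strongest of replicate 2, against 42.5% of such genes, 0 of replicate 1, against 37.8%, and 1 had an optimal summit, against 40.6%. None of these differences was tested.

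**Figure D4:**
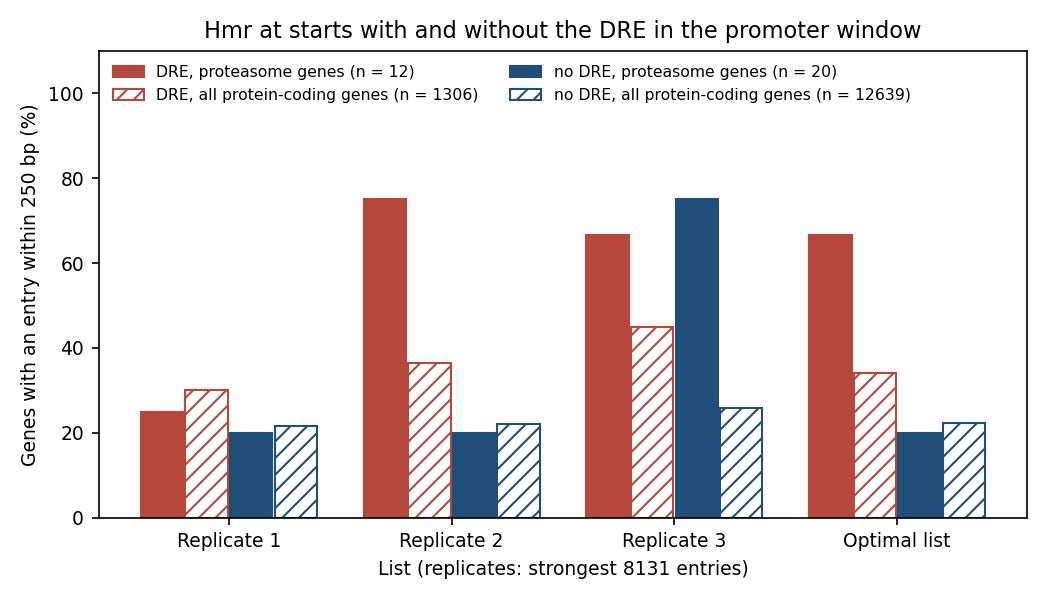
Share of genes with an entry within 250 bp of a start (among the strongest 8131 of each replicate, and in the optimal list), for proteasome genes (filled) and all protein-coding genes (hatched) with the DRE (red) and without it (blue). Members with the DRE stand highest in replicate 2 and the optimal list, and in replicate 3 members without it reach 75%.

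The testis copies differed from the members in having almost no entries. Of the 16 copies, 0 had an optimal summit (interval up to 20.6%), against 23.4% of all genes. In no list was there an entry for 14 of the copies (87.5%, interval 61.7 to 98.4%), against 47.7% of all genes. The 14 include Prosalpha1R, where every word at the start occurs elsewhere too. Its lack of entries thus cannot be told apart from reads that could not be placed. Prosbeta4R1 had a pooled entry of 77.6 (rank 16707) and ranked 13402 and 23771 in replicates 2 and 3. Rpt6R had 57.7 (rank 22556) and ranked 14618 and 19208 in the same replicates. The parent genes Prosbeta4 and Rpt6 had no pooled entry.

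Of 25 other genes of the pathway, 12 had an optimal summit at a start (48%), beside the 23.4% of all genes. They included Pomp, the assembly chaperone of the core, with a signal of 730, and TER94, the segregase that extracts substrates, with 633. Its cofactors Ufd1 and Npl4 had 758 and 170. Keap1, the inhibitor of cnc, had 492 and cnc itself had 242. Uch-L5, the deubiquitinase held by Rpn13, had 298, the ubiquitin ligase gene Ube3a had 370 and the glycanase gene Pngl had 506. The ubiquitin genes Ubi-p63E and RpL40 had 259 and 179, and the regulator PI31 had 204. Among the strongest entries this list gave 12, 14 and 18 of 25 in replicates 1, 2 and 3. Over all genes the shares were 22.4%, 23.5% and 27.6%, and the members had 7, 13 and 23 of 32. In replicate 3 the share of this list was thus much the same as the members' 71.9%, and in replicates 1 and 2 it was higher. These differences were not tested either.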

How the data were processed

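The authors deposited narrowPeak lists in dm6 for each of the 3 replicates, for all replicates together, and a shorter optimal list kept by the irreproducible discovery rate. Text files that accompany the samples say that lists were called against a control, whose reads are not used here. The deposited signal value per peak is the authors', with no scale stated, and the deposited summit offset gave the summit. Depth is unknown, and no source used here names the caller, aligner or threshold. The lists in dm3 were not used, for want of an annotation of that build here.

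Gene starts were those of Ensembl release 115 transcripts on 6 chromosomes. A gene was counted when any of its starts had a summit within 250 bp. Counts were made with Python 3.11.15, pandas 2.3.3 and numpy 2.4.6, intervals with scipy 1.17.1, and the counting was tested on simulated data. Head-to-head genes, matched summits (200 bp) and promoter sequences were defined as given beside their values. Members and lists were chosen with earlier results of these data known, so counts are descriptions. All members are named, other genes only as partners, nearer genes, testis copies or pathway genes with a summit. Alternatives were other distances, start rules, list lengths, windows and leaving each replicate out of the matching or of the replicate lists compared. The labels call the replicates biological and do not describe separate collections, so their spread may be partly technical.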

Additional observations from a re-analysis of the deposited data

How the results depend on the processing

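The count of 12 members with an optimal summit was 7 within 100 bp (13.4% of all genes), 6 when a summit counted only for the nearest gene (19.2%) and 6 when matched in all 3 replicates (15.5%). Asking for a match among the strongest entries of both replicates 2 and 3 gave 9 (18.5% of all genes). For replicates 1 and 3 it gave 7 (18.2%), and for replicates 1 and 2 it gave 6 (16%). The optimal list was still the one called on all 3 replicates, so these counts do not show a list called without a replicate. The 17 members with a pooled entry were 11 within 100 bp (23.4% of all genes). The 9 with an entry in every replicate list were 4 among the strongest entries (15.2% of all genes) and 4 within 100 bp (11.2%). They were 16 without replicate 1 (30.6% of all genes), 13 without replicate 2 (31.1%) and 9 without replicate 3 (25.6%), where the members' share was near that of all genes. Alternatives chosen after seeing the data were run for the strongest entries of each replicate. With 4000 entries per list the counts were 3, 5 and 11 in replicates 1, 2 and 3, against 13.4%, 15.6% and 17.7% of all genes. Within 100 bp they were 4 in replicate 1 (12.8% of all genes) and 8 in replicate 2 (12.2%). Of 32 members, counts of 3 to 6 are near or below such shares. The 6 found when a summit counted only for the nearest gene fall just below the 19.2% of all genes. In all, 11 planned and 6 added alternatives moved a value by over 1.5 times or beyond the spread, among them the TATA box at 7 members within 100 bp of the start, against 13, and 25 and 12 did not. No paired analysis was possible because there was 1 group. With 32 members, shares carry wide intervals, summits between close starts belong to neither gene, and the unknown depth leaves missing entries in a replicate unread. The causes of the differences between replicates were not tested.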
